A study of Mus musculus with 12 samples.

Results

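Scavenger receptors are cell-surface and secreted proteins with which macrophages take up modified lipoproteins, bacteria, dead cells and other debris. Described here are 9 mouse genes of this kind, chosen by name from a table of 40847 gene rows: the class A receptors Marco and Msr1, the class B receptors Cd36 and Scarb1, the C-type lectin-like receptors Olr1 and Mrc1, stabilin-1 (Stab1), the haemoglobin receptor Cd163 and the secreted protein Cd5l. All 9 were present in the table, and 7 of them passed the filter on low counts, with at least 90 reads in every library. In the lung, alveolar macrophages clear inhaled particles and surfactant lipid, and they depend on GM-CSF and TGFβ for their identity. Some of the 9 genes, such as Marco, are known from these cells, and others more from other macrophages or from endothelium.

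The cells were mouse fetal liver alveolar-like macrophages (FLAMs), labelled as a cell line and grown from fetal liver in GM-CSF as a model of alveolar macrophages, whose strain and animal of origin are not given in the sources used here. Every group, controls included, was kept in 30 ng/ml recombinant mouse GM-CSF. The untreated group received nothing else, the TGFβ group recombinant human TGFβ1 at 20 ng/ml, the Pam3 group the TLR2 ligand Pam3CSK4 at 25 ng/ml for 18 h, and the Pam3+TGFβ group both agents. Each of the 4 groups held 3 libraries of polyadenylated RNA, and since the labels do not say whether these came from separate cultures, p-values measure only the spread between the 3 libraries. How long TGFβ was given is not stated.

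The libraries held 34036650 to 44374115 counts. All 6 macrophage markers (Adgre1, Csf1r, Lyz2, Fcgr1, Mertk, Itgam) and all 8 alveolar macrophage markers (among them Siglecf, Itgax, Car4 and Fabp4) were detected in each group. The summed level of the alveolar list was 4340 to 4720 CPM (counts scaled to library size) without TGFβ and 7150 to 8080 CPM with it, most of it Chil3. Of its 8 genes TGFβ without Pam3 raised 6 and lowered 2 (22.9% and 28.1% of all tested genes), Itgax from 335 to 168 CPM and Fabp4 from 31.1 to 0.132 CPM, which is 3 to 6 counts. The lists for liver endothelium (1.61 to 3.37 CPM), lymphocytes (0 to 0.288 CPM) and erythroid cells (0 to 0.257 CPM) were near 0, those for mast cells, fibroblasts, megakaryocytes and dendritic cells reached at most 5.65 CPM, that for hepatocytes 10.2 CPM and that for neutrophils 16.9 CPM. The sums of several lists were lower with TGFβ. The macrophage list summed to 30900 to 35000 CPM without TGFβ, 16000 to 17000 with TGFβ alone and 24900 to 25500 with both, nearly all of it Lyz2, and the dendritic cell list to 3.85 to 5.65 CPM without and 1.23 to 2.53 CPM with it. Of the 6 macrophage genes TGFβ without Pam3 lowered 4 and raised 1 (28.1% and 22.9% of all tested genes), and 1 was not called. Itgam was at 1090 CPM untreated and 38.8 with TGFβ, Adgre1 at 303 and 145, Lyz2 at 29800 and 15200, and Csf1r at 983 and 820. Mertk was at 223 CPM untreated and 222 with TGFβ, and Fcgr1 at 81.1 and 91.3. The neutrophil list was at 13.1 to 16.9 CPM without and 3.27 to 5.97 CPM with TGFβ, most of it S100a8, while S100a9 and Camp, the other tested genes of that list, were called higher with TGFβ without Pam3. The Kupffer cell list, which includes Cd5l, was at 1.6 to 2.88 CPM without and 0.429 to 1.36 CPM with TGFβ, with Timd4 at 61 to 105 counts without and 0 to 3 with it, and Clec4f at 0 without and 14 to 53 with it. The megakaryocyte list was at 1.26 to 5.1 CPM without and 0.296 to 1.11 CPM with TGFβ, and the mast cell list at 0.263 to 1.11 CPM without and 0 to 0.136 CPM with it. Their part in the results was not tested. Mpo, Ttr, Hbb-bs, Col1a2, Cd3e, Tpsb2 and Fcer1a of these lists had no count in any library, but other genes of the same lists did. Cpa3 of the mast cell list had 10 to 46 counts untreated and 0 to 3 with TGFβ alone. Over all libraries, Pdgfra and Pdgfrb of the fibroblast list had 11 to 43 and 0 to 40 counts, Hbb-bt 0 to 3 and Cd79a 0 to 11. The hepatocyte list was nearly all Afp, at 200 to 410 counts per library (5.77 CPM untreated and 9.27 with both, called higher, log2 fold change 0.68), while Alb had 0 to 5 counts. In such bulk RNA, fewer cells that express a gene and less of its RNA per cell cannot be told apart. Libraries differed in carry-over of RNAs without poly(A) tails: 7 such RNAs (mt-Rnr1, mt-Rnr2, Rn7sk, Rn7s1, Rn7s2, Rpph1, Rmrp) took 0.0687% to 0.121% of counts in 7 libraries, among them all of Pam3+TGFβ, and 0.406% to 0.712% in the other 5 (untreated replicate 3, TGFβ replicates 1 and 3, Pam3 replicates 2 and 3). Values from each kind of library alone are given where they change a call. Among the 7, TGFβ and Pam3 have 1 library each, and among the 5 the untreated group has 1, so a call lost there rests on a lone library that is assumed to vary like the rest.

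Marco and Mrc1 gave most of the reads of the 9 genes in untreated cells, and the share of the 9 was lower in every library with TGFβ. They took 0.546% to 0.566% of all counts in untreated libraries, 0.596% to 0.677% with Pam3, 0.218% to 0.239% with TGFβ and 0.278% to 0.282% with both. Without Pam3, TGFβ lowered 5 of the 7 tested genes (Marco, Cd36, Msr1, Stab1, Mrc1) and raised 2 (Olr1, Scarb1), each called at an adjusted p under 0.05 in edgeR's quasi-likelihood test. Of all 14749 tested genes, 51% were called in that comparison (28.1% lower, 22.9% higher). The groups did not overlap for any of the 7, as for 56.4% of all tested genes. With Pam3 present, TGFβ lowered 4 of the 7 and raised 3, where 45.3% of all tested genes were called (23.8% lower, 21.5% higher), and again none of the 7 overlapped (55.1% of all). The median log2 fold change of the 7 was -1.37 without and -0.7 with Pam3, while that of all tested genes was -0.0084 and -0.0017. The TGFβ effect had the same direction in both settings for 6 of the 7, the exception being Stab1. Over all tested genes, 4894 of the 7518 called without Pam3 were called in the same direction with it (33.2% of those tested), so most called genes did the same.

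**Figure D1:**
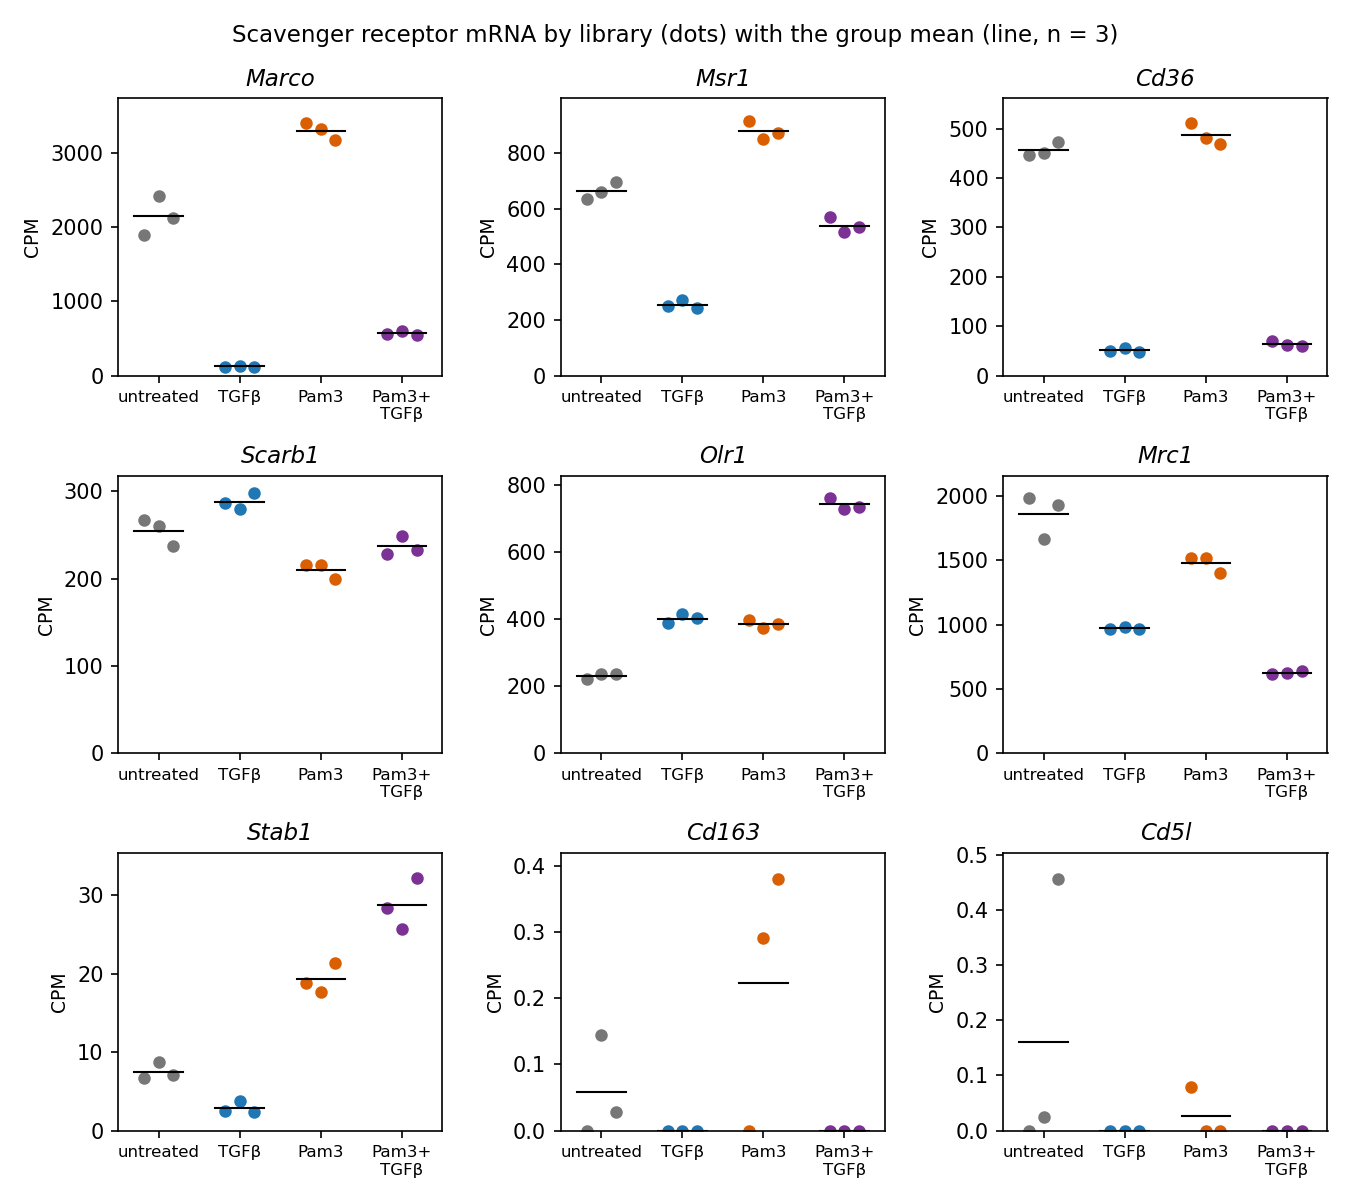
Level of each gene in CPM (vertical axes, each from 0) in the 12 libraries, grouped by treatment, with dots for libraries and a line for the mean of 3. Marco and Cd36 are lower in both groups with TGFβ, Olr1 is highest with both agents, and Cd163 and Cd5l stay under 0.5 CPM everywhere.

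Marco (GRCm39 chromosome 1, 120402267 to 120432753, minus strand, protein-coding, 17 exons) encodes a collagenous class A receptor that binds bacteria and inhaled particles. Its level was 1890, 2420 and 2130 CPM in the untreated libraries, 119, 130 and 120 with TGFβ, 3400, 3330 and 3180 with Pam3, and 555, 599 and 551 with both. The groups did not overlap, and those without TGFβ stood far above those with it. TGFβ lowered Marco 17.4-fold without Pam3 (log2 fold change -4.12, SE 0.0781, edgeR adjusted p 7.11e-23) and 5.81-fold with it (-2.54, SE 0.0727, edgeR adjusted p 2.63e-19). In the first comparison 1.82% of all tested genes changed by more. By level per kilobase of its canonical transcript, Marco ranked 22 of 13486 genes in untreated cells, 14 with Pam3, 835 with TGFβ and 142 with both.

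Pam3 acted on Marco in the opposite direction to TGFβ. It raised the level 1.54-fold without TGFβ (log2 fold change 0.62, SE 0.0689, edgeR adjusted p 2.65e-07) and 4.61-fold with it (2.2, SE 0.072, edgeR adjusted p 6.46e-18). The responses differed by 1.58 on the log2 scale (SE 0.0979, edgeR adjusted p 1.24e-11). Even so, the level with both agents stayed 3.78-fold under the untreated level (-1.92, SE 0.071, edgeR adjusted p 2.99e-17), and the order of levels was Pam3, untreated, both, TGFβ.

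Msr1 (chromosome 8, 40034726 to 40095714, minus strand, protein-coding, 10 exons), the class A receptor for acetylated and oxidised lipoproteins, had the same order of levels over a narrower range. It stood at 636, 661 and 695 CPM in untreated libraries, 248, 271 and 243 with TGFβ, 916, 849 and 870 with Pam3 and 568, 515 and 534 with both. Again no groups overlapped. TGFβ lowered it 2.62-fold without Pam3 (log2 fold change -1.39, SE 0.0559, edgeR adjusted p 8.64e-17) and 1.63-fold with it (-0.7, SE 0.0551, edgeR adjusted p 6.01e-11). Pam3 raised it 1.32-fold without and 2.12-fold with TGFβ (edgeR adjusted p 4.8e-06 and 1.79e-14), and the difference between these responses was 0.68 (SE 0.0777, edgeR adjusted p 3.09e-07). With both agents Msr1 was 1.23-fold under untreated (-0.3, SE 0.0549, edgeR adjusted p 5.05e-05). Within a library, the ratio of Marco to Msr1, each per kilobase of canonical transcript, was 2.2 to 2.71 untreated, 2.71 to 2.9 with Pam3, 0.355 to 0.367 with TGFβ and 0.723 to 0.86 with both. Which gene stood higher with TGFβ rests on the Msr1 length, 1424 bases here and 6344 over all annotated exons. Over all exons Marco was above Msr1 in each group, at 64.1 and 40 CPM per kilobase with TGFβ and 295 and 85 with both.

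Cd36 (chromosome 5, 17986432 to 18094067, minus strand, protein-coding, 15 exons) is the class B receptor for oxidised lipoproteins and long-chain fatty acids. Its level was 446, 450 and 472 CPM untreated, 50.1, 55.7 and 47.8 with TGFβ, 512, 481 and 468 with Pam3, and 70.4, 62.4 and 58.8 with both. Libraries fell into a high range without TGFβ and a low range with it, and untreated and Pam3 libraries overlapped. TGFβ lowered Cd36 8.91-fold without Pam3 (log2 fold change -3.15, SE 0.0642, edgeR adjusted p 9.56e-20) and 7.63-fold with it (-2.93, SE 0.0634, edgeR adjusted p 3.26e-19). The change with Pam3 alone was 0.094 (SE 0.0581, edgeR adjusted p 0.311, 95% interval -0.02 to 0.21), and 0.059 to 0.12 when 1 library was left out, the lowest without Pam3 replicate 1. It was 0.2 among the libraries with little carry-over and 0.0078 among the others. In cells with TGFβ, Pam3 raised Cd36 1.25-fold (0.32, SE 0.0615, edgeR adjusted p 0.000275), which was 0.19 (edgeR adjusted p 0.177) among the 7 libraries with little carry-over. The interaction, 0.22 (SE 0.0846), was not called (edgeR adjusted p 0.0831), but was without TGFβ replicate 2 (0.27, edgeR adjusted p 0.031) or without Pam3+TGFβ replicate 3 (0.26, edgeR adjusted p 0.0464). It was 0.13 without Pam3+TGFβ replicate 1 and -0.011 (edgeR adjusted p 0.993) among the 7 libraries with little carry-over.

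Scarb1 (chromosome 5, 125353547 to 125418176, minus strand, protein-coding, 13 exons), the class B receptor that exchanges cholesterol with high-density lipoprotein, had the smallest ratio of highest to lowest group mean among the 7. It stood at 267, 260 and 237 CPM untreated, 286, 280 and 298 with TGFβ, 215, 216 and 200 with Pam3, and 228, 249 and 233 with both. The untreated libraries and those with both agents overlapped. Pam3 lowered it 1.21-fold without TGFβ (log2 fold change -0.28, SE 0.0482, edgeR adjusted p 0.000135) and 1.22-fold with it (-0.28, SE 0.0481, edgeR adjusted p 3.09e-05). TGFβ raised it 1.13-fold without Pam3 (edgeR adjusted p 0.00318) and 1.12-fold with it (edgeR adjusted p 0.00541). Those TGFβ effects, 0.18 and 0.17, were 0.11 and 0.15 and not called among the libraries with little carry-over (edgeR adjusted p 0.315 and 0.168), where TGFβ alone and Pam3 alone are 1 library each, and the effect without Pam3 was 0.33 (edgeR adjusted p 0.000221) among the other 5. The Pam3 response without TGFβ was -0.29 (edgeR adjusted p 0.0352) in the former and -0.19 (edgeR adjusted p 0.0864) in the latter. The level with both differed from untreated by -0.11 (SE 0.0481, edgeR adjusted p 0.068), which was called without untreated replicate 3 (-0.15, edgeR adjusted p 0.0134) or without Pam3+TGFβ replicate 2 (-0.13, edgeR adjusted p 0.0307), and under upper-quartile scaling (-0.14, edgeR adjusted p 0.0192). Without untreated replicate 1 it was -0.065 (edgeR adjusted p 0.301). The interaction of -0.0081 had a 95% interval of -0.14 to 0.13.

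Olr1 (chromosome 6, 129462207 to 129484128, minus strand, protein-coding, 8 exons) encodes LOX-1, a lectin-like receptor for oxidised low-density lipoprotein. It was the gene among the 7 that rose with each agent in each setting. Its level was 220, 236 and 236 CPM untreated, 387, 414 and 402 with TGFβ, 396, 373 and 384 with Pam3, and 761, 727 and 734 with both. Untreated libraries were lowest, those with both agents highest, and the ranges for TGFβ alone and Pam3 alone overlapped. TGFβ raised Olr1 1.74-fold without Pam3 (log2 fold change 0.8, SE 0.0478, edgeR adjusted p 2.62e-13) and 1.93-fold with it (0.95, SE 0.0478, edgeR adjusted p 9.97e-15). Pam3 raised it 1.67-fold without TGFβ (0.74, SE 0.0477, edgeR adjusted p 1.86e-11) and 1.85-fold with it (0.89, SE 0.0477, edgeR adjusted p 4.95e-14). The 2 agents alone differed by 0.061 (SE 0.0474, edgeR adjusted p 0.296, 95% interval -0.032 to 0.15), which was 0.04 without Pam3 replicate 2 and 0.11 without TGFβ replicate 1, uncalled in each. With both, the level was 3.21-fold that of untreated cells (1.68, SE 0.0487, edgeR adjusted p 9.17e-20), and the interaction was 0.15 (SE 0.0671, edgeR adjusted p 0.149, 95% interval 0.018 to 0.28). That interaction was 0.026 (edgeR adjusted p 0.955) among the libraries with little carry-over and 0.1 to 0.18 with 1 library left out.

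Mrc1 (chromosome 2, 14234151 to 14336926, plus strand, protein-coding, 30 exons) encodes the mannose receptor CD206, which takes up mannose-bearing glycoproteins and microbes. It went down with each agent. It stood at 1990, 1670 and 1930 CPM untreated, 967, 979 and 965 with TGFβ, 1520, 1520 and 1400 with Pam3, and 614, 624 and 637 with both, with no overlap between groups. TGFβ lowered it 1.92-fold without Pam3 (log2 fold change -0.94, SE 0.0593, edgeR adjusted p 6.9e-13) and 2.37-fold with it (-1.24, SE 0.0597, edgeR adjusted p 3.84e-15). Pam3 lowered it 1.26-fold without TGFβ (-0.33, SE 0.0588, edgeR adjusted p 0.000146) and 1.55-fold with it (-0.63, SE 0.059, edgeR adjusted p 2.27e-09). The former was -0.27 (edgeR adjusted p 0.0978) among the libraries with little carry-over and -0.4 (edgeR adjusted p 9.36e-06) among the others. The interaction of -0.3 (SE 0.0832, edgeR adjusted p 0.0129) had an adjusted p of 0.0512 in edgeR without Pam3 replicate 2 and of 0.0906, at -0.39, among the libraries with little carry-over. With both agents Mrc1 was 2.98-fold under untreated (-1.58, SE 0.0602, edgeR adjusted p 2.32e-17).

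**Figure D2:**
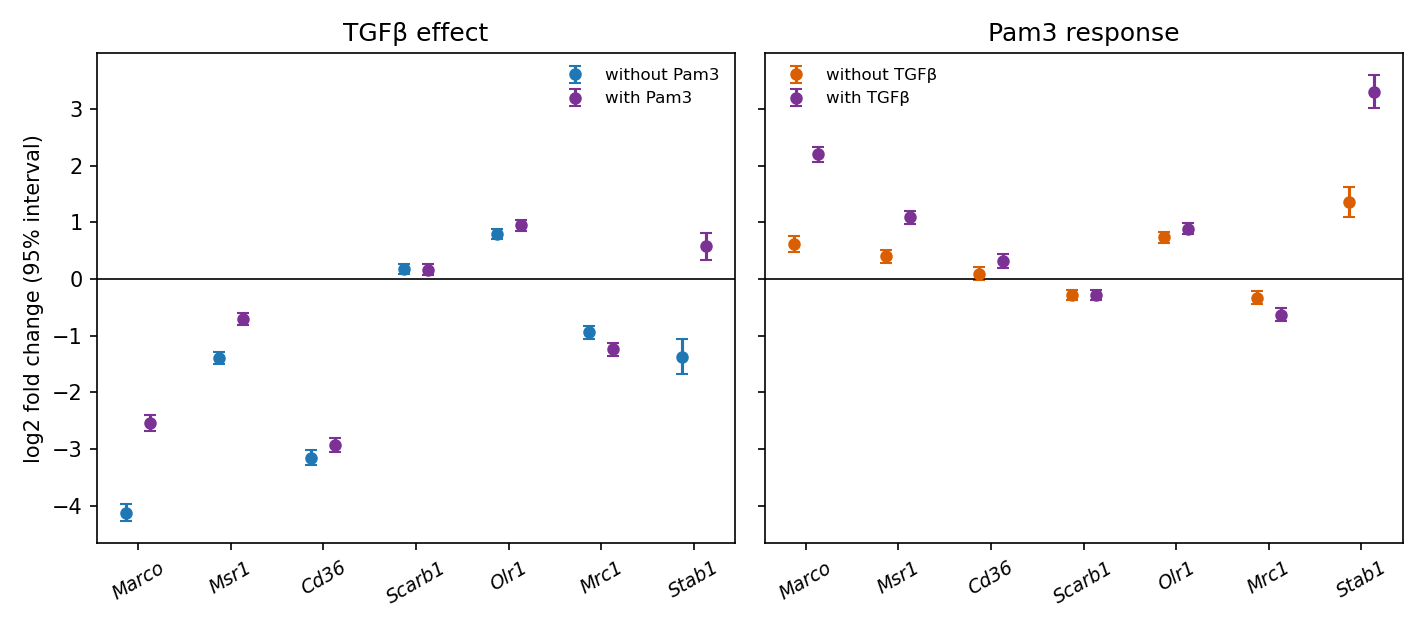
Log2 fold change with TGFβ (left) and with Pam3 (right) for the 7 tested genes, each shown without and with the other agent; bars are 95% intervals from the edgeR standard error. Stab1 lies below 0 for TGFβ without Pam3 (-1.37) and above 0 with Pam3 (0.58), and the Pam3 responses of Marco and Stab1 are larger with TGFβ (2.2 and 3.31) than without it (0.62 and 1.36).

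Stab1 (chromosome 14, 30860970 to 30890598, minus strand, protein-coding, 69 exons) encodes stabilin-1, a large receptor for acetylated lipoprotein, apoptotic cells and the matrix protein SPARC that is also known from liver sinusoidal endothelium. It was the member whose TGFβ effect turned with Pam3. Its level was 6.65, 8.73 and 7.07 CPM untreated, 2.49, 3.75 and 2.41 with TGFβ, 18.8, 17.7 and 21.4 with Pam3, and 28.4, 25.7 and 32.2 with both. No groups overlapped, TGFβ libraries being lowest and those with both agents highest. TGFβ lowered Stab1 2.59-fold without Pam3 (log2 fold change -1.37, SE 0.156, edgeR adjusted p 1.75e-07) and raised it 1.49-fold with Pam3 (0.58, SE 0.123, edgeR adjusted p 0.000549). Of all tested genes, 228 (1.55%) were called lower by TGFβ without Pam3 and higher with it.

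Pam3 raised Stab1 2.57-fold without TGFβ (1.36, SE 0.133, edgeR adjusted p 1.23e-07) and 9.92-fold with it (3.31, SE 0.147, edgeR adjusted p 5.11e-14). The difference between these responses was 1.95 (SE 0.199, edgeR adjusted p 2.29e-07), and 3.41% of all tested genes had a larger interaction in size. Among the libraries with little carry-over the interaction was 1.63 (edgeR adjusted p 0.000376). The liver endothelium markers summed to 1.61 to 3.37 CPM, with members that moved in opposite directions with TGFβ without Pam3: Cdh5 was at 0.888 CPM untreated and 0.0514 with TGFβ, Stab2 at 0.394 and 0.0868, and Pecam1 at 0.895 and 2.46. Their part in the Stab1 result was not tested. The gene shares 113 exonic bases with Nt5dc2 on the opposite strand, and the strand setting of the counting is not stated. Nt5dc2 had 801 to 1390 counts per library, not scaled to depth: 805 to 1176 untreated, 801 to 883 with TGFβ, 831 to 1113 with Pam3 and 997 to 1390 with both. Its part in the Stab1 counts was not tested.

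Cd163, the macrophage receptor for haemoglobin bound to haptoglobin, and Cd5l, a secreted scavenger protein known from tissue macrophages, were barely detected and did not pass the filter. Cd163 (chromosome 6, 124281606 to 124307560, plus strand, 17 exons) had 0, 6 and 1 counts in untreated libraries, 0, 11 and 12 with Pam3, and 0 in all 6 libraries with TGFβ. Cd5l (chromosome 3, 87265182 to 87278380, plus strand, 6 exons) had 0, 1 and 16 counts untreated, 3, 0 and 0 with Pam3, and 0 in all 6 libraries with TGFβ. The counts of each gene sit in a few libraries, and 16 of the 20 for Cd5l come from untreated replicate 3. A count of 0 allows up to 3 counts, or 0.0678 to 0.0873 CPM in the Pam3+TGFβ libraries, counting error alone considered. Fitted without a filter over 23757 genes, Cd163 was lower in Pam3+TGFβ than in Pam3 libraries (edgeR adjusted p 0.0104), and not called without Pam3 replicate 3 (edgeR adjusted p 0.0653). The TGFβ effect on Cd163 without Pam3 was not called (edgeR adjusted p 0.0992). Cd5l was called lower with TGFβ without Pam3 (edgeR adjusted p 0.0373), which was 0.529 without untreated replicate 3 and 0.0996 to 0.104 without any 1 of the TGFβ libraries. With Pam3 present, the TGFβ effect on Cd5l was not called (edgeR adjusted p 0.303).

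Pam3 raised some of the receptors and lowered others. Without TGFβ, 4 of the 7 rose (Stab1, Olr1, Marco, Msr1), 2 fell (Mrc1, Scarb1) and Cd36 was not called, where 18.3% of all tested genes were called (9.62% higher, 8.66% lower) and 6 of the 7 did not overlap (31.4% of all). With TGFβ, 5 rose, Cd36 among them, and 2 fell, where 38.5% of all tested genes were called (20.4% higher, 18.1% lower; of the calls 53% were higher, and 41.5% with upper-quartile scaling). None of the 7 overlapped there (50.4% of all). All 6 genes called without TGFβ were called in the same direction with it, as were 2079 of the 2697 genes called without TGFβ among all tested genes (14.1% of those tested), so most called genes did the same. The interaction was called for 4 of the 7, with a larger response in the presence of TGFβ for Stab1, Marco and Msr1 and a lower value for Mrc1. Of all tested genes 15.9% had a called interaction (10.3% higher, 5.67% lower; of the calls 64.5% were higher, and 53.4% with upper-quartile scaling). Against untreated cells, those with both agents had 2 genes higher (Stab1, Olr1), 4 lower (Cd36, Marco, Mrc1, Msr1) and Scarb1 not called, where 52.1% of all tested genes were called (25% higher, 27.2% lower) and 6 of the 7 did not overlap (56.8% of all). Between TGFβ alone and Pam3 alone, 5 were lower with TGFβ, Scarb1 was higher and Olr1 was not called, where 54% of all tested genes were called (24.5% higher, 29.6% lower) and 6 of the 7 did not overlap (61.6% of all).

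**Figure D3:**
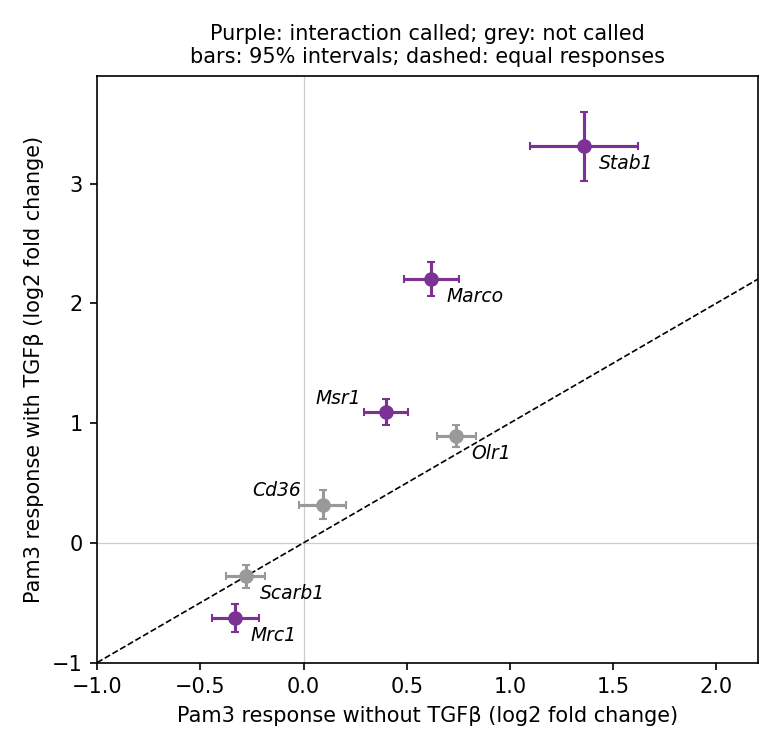
Log2 fold change with Pam3 in cells without TGFβ (horizontal) and with TGFβ (vertical) for the 7 tested genes, with 95% intervals and a dashed line of equal responses. Stab1, Marco and Msr1 lie above the line and Mrc1 below it, with interactions of 1.95, 1.58, 0.68 and -0.3; Cd36, Olr1 and Scarb1 (grey) had no called interaction.

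Ratios between receptors within a library do not depend on how libraries are scaled. The ratio of Marco to Mrc1, per kilobase, was 2.71, 4.12 and 3.14 in untreated libraries, 6.38, 6.22 and 6.49 with Pam3, 0.351, 0.38 and 0.355 with TGFβ, and 2.57, 2.73 and 2.47 with both. Cd36 and Olr1 both bind oxidised low-density lipoprotein. Their ratio was 2.06, 1.95 and 2.04 untreated, 1.32, 1.32 and 1.24 with Pam3, 0.132, 0.137 and 0.121 with TGFβ, and 0.0943, 0.0874 and 0.0817 with both. No pair of groups overlapped in the Cd36 to Olr1 ratio, and for Marco to Mrc1 untreated and Pam3+TGFβ libraries did. The size of each ratio rests on the canonical transcript lengths used (1925 bases for Marco, 5484 for Mrc1, 3505 for Cd36, 3572 for Olr1), but its change between groups does not. Over all annotated exons Cd36 spans 12624 bases and Olr1 4015. By that length untreated cells had 36.1 CPM per kilobase of Cd36 and 57.5 of Olr1, so which of them stood higher there depends on the length.

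**Figure D4:**
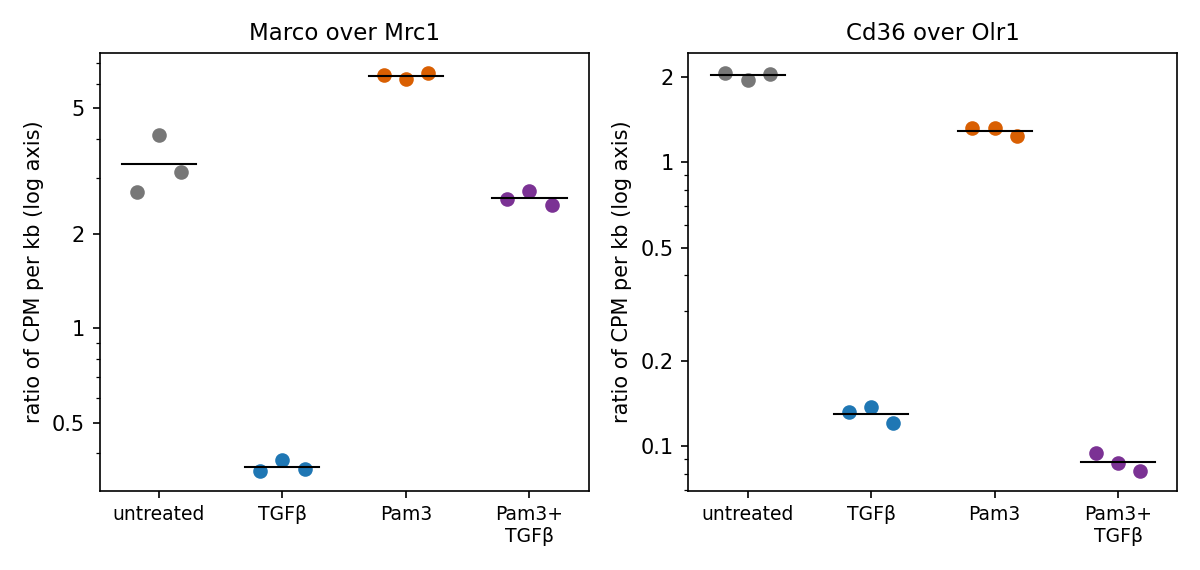
Ratio of Marco to Mrc1 (left) and of Cd36 to Olr1 (right), each gene in CPM per kilobase, in every library on log axes, with a line at the group mean of 3. TGFβ libraries lie lowest for Marco to Mrc1 (0.351 to 0.38) and libraries with both agents lowest for Cd36 to Olr1 (0.0817 to 0.0943).

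Compared per kilobase of canonical transcript, Marco was the most abundant of the 9 in untreated cells at 1120 ± 138 CPM per kilobase (SD, n = 3), followed by Msr1 (466 ± 20.6) and Mrc1 (340 ± 30.5). With TGFβ the leaders were Msr1 (178 ± 10.5) and Mrc1 (177 ± 1.31), whose spreads overlap, with Scarb1 (113 ± 3.51) and Olr1 (112 ± 3.85) next and also overlapping. With both agents Msr1 (379 ± 18.9) and Marco (295 ± 13.7) led, and Olr1 (207 ± 4.99) passed Mrc1 (114 ± 2.08). The order depends on the length used, above all for Msr1, Cd36 and Scarb1. For Msr1 the annotated exons together span 6344 bases against 1424 in its canonical transcript, and over all exons the gene stood at 105 CPM per kilobase in untreated cells, under Mrc1 at 238.

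The proximal promoters of Marco and Olr1, which moved in opposite directions with TGFβ, are shown for comparison. They are the 250 bases before the RefSeq start, 5′ to 3′ on the gene's strand, from a table made on GRCm38.p6 and each found once in GRCm39. Capitals mark matches to the motifs searched.
Marco, GRCm39 chr1:120432754-120433003, minus strand: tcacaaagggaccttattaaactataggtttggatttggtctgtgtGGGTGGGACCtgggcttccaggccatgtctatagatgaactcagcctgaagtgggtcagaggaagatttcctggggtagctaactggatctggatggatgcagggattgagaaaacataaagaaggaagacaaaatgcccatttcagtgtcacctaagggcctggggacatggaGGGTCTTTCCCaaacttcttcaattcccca
Olr1, GRCm39 chr6:129484129-129484378, minus strand: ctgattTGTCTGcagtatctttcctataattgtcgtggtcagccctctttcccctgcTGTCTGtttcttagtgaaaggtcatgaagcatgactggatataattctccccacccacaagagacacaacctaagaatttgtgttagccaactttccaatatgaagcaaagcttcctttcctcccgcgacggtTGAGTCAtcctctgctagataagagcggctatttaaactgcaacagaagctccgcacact
In Marco the capitals are matches to a loose NF-kB pattern, GGG and CC with 5 bases of any kind between them, of which those near the start overlap on the 2 strands. In Olr1 they are 2 matches to the SMAD core CAGACA, on the reverse strand, and 1 to the AP-1 site TGANTCA, 60 to 54 bases before the start.

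Of 32817 promoters of the same length, 45.8% held the NF-kB pattern, 17.1% the SMAD core and 6.75% the AP-1 site. Promoters were matched for 7 of the 9 genes (Msr1 and Scarb1 were not), and the NF-kB pattern was in 4 of them (Marco, Cd36, Mrc1, Cd163). The antioxidant core TGANNNNGC, held by 35.2% of promoters, was in that of Cd5l. On both strands, no match was found in these windows to the SMAD box GTCTAGAC (0.168% of promoters), PU.1 GAGGAAGT (2.44%), the nuclear receptor repeats DR1 (0.0335%) and DR4 (0.0152%), the MAF element (1.11%), which contains the antioxidant core, the interferon element ISRE (2.97%), C/EBP TTGCNNAA (9.57%) or the TATA box TATAAA (12.4%). A match describes letters and is not a bound site.

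Other scavenger receptors of the consensus classes and the mannose receptor family (24 genes, 14 tested) are given for comparison. TGFβ without Pam3 lowered 7 and raised 4 of the 14 (28.1% and 22.9% of all tested genes), with a median of -0.24 (-0.0084 over all). It lowered Colec12, a class A receptor of endothelium and stroma, by 0.88 on the log2 scale (SE 0.0441, edgeR adjusted p 6.3e-15). Cxcl16, which is at once a chemokine and a receptor for oxidised lipoprotein, had the largest called Pam3 response of the list, with 1.77 without TGFβ (SE 0.138, edgeR adjusted p 1.74e-09) and 2.55 with it (SE 0.13, edgeR adjusted p 1.51e-13). Its CPM was 4.1 ± 1.25 in untreated cells and 5.78 ± 0.368 in TGFβ, 14 ± 1.07 in Pam3 and 33.8 ± 1.43 in Pam3+TGFβ cells (SD, n = 3), so that it was highest with both agents, as Stab1 and Olr1 were. Its interaction was 0.78 (SE 0.19, edgeR adjusted p 0.00549). Pam3 raised 4 of the 14 and lowered 1 without TGFβ (9.62% and 8.66% of all tested genes), and raised 4 and lowered 2 with it (20.4% and 18.1%). The interaction was called higher for 3 (Cxcl16, Colec12, Cd68) and lower for none, with 11 not called (10.3% and 5.67% of all tested genes). Stab2, the sister gene of Stab1, had 15 counts in each untreated library and 0 to 11 in the others.

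Among regulators known to act on these receptors (15 genes, 14 tested), Maf, a transcription factor of resident macrophages, fell with TGFβ. It had 112, 107 and 106 counts untreated, 9, 9 and 2 with TGFβ, 342, 346 and 314 with Pam3, and 28, 19 and 16 with both. Its TGFβ effect was -4 without Pam3 (SE 0.324, edgeR adjusted p 9.12e-11) and -4.08 with it (SE 0.26, edgeR adjusted p 1.13e-12). Pparg, which encodes the lipid-sensing nuclear receptor known to induce Cd36, rose with TGFβ by 0.94 without Pam3 (SE 0.0448, edgeR adjusted p 2.34e-15), where Cd36 fell by 3.15. Bhlhe41, another alveolar macrophage factor, rose by 1.09 (SE 0.0411, edgeR adjusted p 2.33e-17). In all, TGFβ without Pam3 raised 2 and lowered 6 of the 14 (22.9% and 28.1% of all tested genes). Pam3 raised 5 and lowered 4 without TGFβ (9.62% and 8.66% of all), and raised 8 and lowered 4 with it (20.4% and 18.1%).

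Of the partners, adaptors and shedding enzymes (12 genes, 10 tested), TGFβ without Pam3 lowered 8 and raised 1 (28.1% and 22.9% of all tested genes), with a median of -0.45 (-0.0084 over all). Pam3 raised 4 and lowered 0 of the 10 without TGFβ (9.62% and 8.66% of all), and raised 4 and lowered 2 with it (20.4% and 18.1%). Tlr2 is the receptor of Pam3, and Cd36 is a co-receptor of Tlr2 for some ligands. Tlr2 rose with Pam3 by 0.39 without TGFβ (SE 0.0538, edgeR adjusted p 6.16e-06) and by 1.69 with it (SE 0.0552, edgeR adjusted p 2.72e-18). The TGFβ effect on Tlr2 was -0.49 without Pam3 and 0.81 with it (edgeR adjusted p 3.06e-08 and 2.65e-12). Tlr6, a partner of Tlr2, fell with TGFβ by 0.69 without Pam3 and by 0.87 with it (edgeR adjusted p 4.21e-08 and 1.04e-09). Hmox1, haem oxygenase 1, which degrades the haem that Cd163 takes in, stood at 415 ± 45.8 CPM in untreated, 190 ± 7.16 in TGFβ, 531 ± 13.9 in Pam3 and 460 ± 23 in Pam3+TGFβ cells (SD, n = 3), in cells where Cd163 itself was at or near 0. Chid1, which encodes a chitinase-like partner of stabilin-1, fell with TGFβ by 0.82 without and by 0.76 with Pam3 (edgeR adjusted p 2.96e-09 and 1.21e-08), whereas Stab1 moved by -1.37 and 0.58. Adam17, a sheddase of Cd163 and other receptors, rose with Pam3 by 0.46 without and 0.72 with TGFβ (edgeR adjusted p 1.04e-07 and 5.69e-12).

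The genes whose levels ran most like each member were found by Pearson r over the log2 CPM of the 12 libraries, among 11057 genes. The 12 points are 4 treatments, so r mostly reflects the group means. Marco was followed most closely by Adgre4, a macrophage adhesion receptor (r = 0.9986), Aoah, an enzyme that inactivates lipopolysaccharide (0.9983), and the inhibitory receptor Lilrb4a (0.9972). Cd36 was nearest to Sgms1, a sphingomyelin synthase (0.9984), Olr1 to Ppp1r12b (0.9936), Mrc1 to Add3 (0.9971), Msr1 to Mtm1 (0.9939) and Stab1 to the kinase Syk (0.9918). Scarb1, which varied least, had its highest r with Rgs2 (0.9752). Car4, an alveolar macrophage marker, was among the 3 nearest to Olr1 (0.9907), with 448 ± 31.5 CPM in untreated, 774 ± 34.3 in TGFβ, 835 ± 29.6 in Pam3 and 1530 ± 79.4 in Pam3+TGFβ cells (SD, n = 3). Among the members, Marco and Msr1 had r = 0.97, Marco and Cd36 0.93, and Olr1 and Mrc1 -0.94.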

How the data were processed

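Per the labels' protocols, polyadenylated RNA of 12 libraries was made into stranded mRNA libraries. Per the submitters' processing notes, the authors aligned reads to GRCm39 with Bowtie2 2.4.1 and counted them with featureCounts of Subread 2.0.0. Annotation, strand setting and multiply aligned reads are not given in the sources used here, and Bowtie2 does not split reads over introns. The deposited raw counts per gene symbol were used throughout. The deposited normalized values, a signal equal to the raw count over 1 constant per library, entered 1 alternative.

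Genes were kept with filterByExpr (minimum count 10, 14749 genes) and TMM factors set the library sizes. Tests were edgeR 4.0.16 quasi-likelihood tests (R 4.3.3) with 1 mean for each of the 4 groups and every library in the model, and Benjamini-Hochberg adjustment ran over all tested genes. SE is the log2 fold change over the square root of F, and 95% intervals are 1.96 SE either side. CPM uses TMM-scaled library sizes. Alternatives were DESeq2 1.42.0, limma 3.58.1 on log2 of the normalized values plus 1, other scalings and filters, a replicate block, a fit on only the 6 libraries of a comparison, and leaving out each library. Tests on each kind of library by carry-over, a covariate for it, both comparisons beyond the 5 of the design (both agents against untreated, TGFβ against Pam3), the per-exon lengths and the Cd163 and Cd5l fits without a library were added after the data were seen. The procedure was tested on simulated counts. Positions and lengths come from GENCODE M39 (GRCm39), matched by symbol for 32245 rows.

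The members and lists were chosen with earlier results of these data known. Named are the 9 members, for each list and comparison at most 4 of its called genes, by size of change, and up to 3 genes with the highest r per member, of which a part is described. Nt5dc2 was named for its overlap with Stab1, and genes of the cell type marker lists to show what their sums hold, after their values were seen.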

Additional observations from a re-analysis of the deposited data

Results flagged for a closer look

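In 4 of the 7 tested receptors TGFβ changed the size of the response to Pam3, by edgeR's interaction term, which was called for 15.9% of all tested genes. Stab1 had a difference of 1.95 on the log2 scale, Marco of 1.58, Msr1 of 0.68 and Mrc1 of -0.3. The Mrc1 call was lost without Pam3 replicate 2 (edgeR adjusted p 0.0512) and among the libraries with little carry-over of RNAs without poly(A) tails (edgeR adjusted p 0.0906). The rank test for a library far from the others needs groups of 4 or more and was not run on groups of 3.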

How the results depend on the processing

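Over all alternatives and fits, 1073 of 1092 values of single receptors kept their direction and their side of the threshold, 7 lost a call, 6 gained one and 6 changed sign. The sign changes were the interaction of Scarb1 (0.0032 without a filter, 0.05 without untreated replicate 3, 0.013 and 0.019 without Pam3 replicates 1 and 2, 0.035 with little carry-over of RNAs without poly(A) tails) and of Cd36 (-0.011 with little carry-over), none of them called. Leaving out 1 library at a time, the Scarb1 interaction ranged from -0.066 to 0.05. The Cd36 interaction was called without a filter (edgeR adjusted p 0.0159), without TGFβ replicate 2 (edgeR adjusted p 0.031) and without Pam3+TGFβ replicate 3 (edgeR adjusted p 0.0464), over a range of -0.011 to 0.27. The number of receptors called stayed within 1.5 times under each alternative run. Counts over all genes fell among the libraries with little carry-over, to 1173 from 2697 for Pam3 without TGFβ (1424 among the other libraries), 3370 from 5678 for Pam3 with TGFβ, 802 from 2352 for the interaction and 4673 from 7971 for TGFβ against Pam3; these fits hold 7 and 5 libraries, some groups 1, which are assumed to vary like the rest. The replicate block changed no receptor call and gave 2751, 5714, 7562, 6736 and 2393 genes for the 5 comparisons. Same-numbered libraries deviated together (r over 0.1) in 6 of 18 pairs, and 5 of 12 libraries correlated best with their own number. These values also vary with carry-over. For untreated against TGFβ, r was 0.25 and 0.3 for replicates 2 and 3, alike in carry-over, and -0.13 for replicate 1, which differed in it. The check therefore cannot show or exclude pairing, and the main fit did not take the numbers as pairs. Low counts limit Cd163 and Cd5l, and also Maf with TGFβ and Stab2.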
